A study of Mus musculus with 25 samples.

Results

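The genes described are those that encode the proteins of the mitochondrial ribosome (Mrpl for the large and Mrps for the small subunit). They were taken as the protein-coding rows whose symbol starts with Mrpl or Mrps followed by a digit and that reached 0.5 FPKM (fragments per kilobase of gene length, scaled to sequencing depth) in at least 5 of 25 libraries. Of 78 such rows, 77 reached it, out of 16450 genes that did so and 54532 listed. Mrpl53 was the only named row left out, and it was listed at 0 in all 25 libraries. The 77 members reached 0.5 FPKM in all 25 libraries, so none was a member through 1 group alone. Nearest above the limit were Mrpl33, with a mean of 1.13 FPKM, and Mrps35, with 1.81 FPKM.

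RNA from cortex was sequenced in 25 mice, 5 in each of 5 groups. The wild-type groups were WT_Veh, given vehicle, and WT_HighP, given P at its high dose. The 5xFAD groups were AD_Veh, given vehicle, AD_LowP, given P at its low dose, and AD_HighP, given the high dose. P is a natural product derivative; its identity, the doses, the duration, the strain background and the age of the mice are not stated in the sources used here. The 5xFAD line carries mutant human amyloid precursor protein and presenilin transgenes driven by Thy1 sequences, so that the transgenes are expressed in neurons. The 25 libraries included no wild-type mice with the low dose, so the low dose could be compared in 5xFAD mice only.

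Mitochondria keep a ribosome of their own, which translates the few proteins encoded by mitochondrial DNA, all of them subunits of the respiratory chain and ATP synthase. Its RNAs come from mitochondrial DNA, but each of its proteins is encoded in the nucleus, made in the cytosol and imported. Many of these proteins have a counterpart in bacterial ribosomes, and others are found in mitochondria only. Neurons depend heavily on oxidative phosphorylation, and inherited defects of several of these proteins cause multisystem disease.

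Of the 77 members, 29 encode large-subunit proteins with a bacterial counterpart and 21 large-subunit proteins found in mitochondria only. Small-subunit proteins with and without a bacterial counterpart accounted for 16 and 10. The remaining member, Mrps36, keeps its ribosomal name although its product is now assigned to the 2-oxoglutarate dehydrogenase complex. Mrps18a and Mrps30 carry small-subunit names and are counted with the large subunit, where structures place them.

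Promoters were looked at for what the members share outside the transcripts. RefSeq start sites (GRCm38.p6) matched 68 of the 77 members, with 74 promoters that run from 250 bases before to 50 bases after the start. Exact matches were sought on both strands to 4 motifs that are often found at genes for mitochondrial proteins or at housekeeping genes: NRF1 (the 10 letters in capitals in the Mrpl9 sequence that follows), CCGGAAGT (GABPA), AAGATGGC (YY1) and GGGGCGGG (SP1). None of these motifs contains another, although matches of different motifs could overlap in a promoter. The first was held by 3 promoters (4.05%, against 0.971% of 32851 mouse promoters of the same length), those of Mrpl9, Mrpl32 and Mrpl39. GABPA letters were held by 12 (16.2% against 3.89%), YY1 letters by 12 (16.2% against 2.75%) and SP1 letters by 23 (31.1% against 16.5%). At least 1 of the 4 was held by 40 promoters (54.1% against 22.0%). These 40 belong to 37 members, and the 23 with SP1 letters to 20, because promoters of 1 gene can share a match. The 32851 promoters were not limited to tested genes, while every member was tested. The members' promoters were also richer in GC, with a median of 58.5% against 52.7%, which raises the chance of the GC-rich letters, and a match is no evidence of binding. The stretches below lie upstream of the start and outside every annotated exon, and capitals mark the motif. They show an NRF1 match ending where the first exon begins (Mrpl9, chr3:94443086-94443317, plus strand), a GABPA match just upstream of a member that shares its start region with Twnk, the mitochondrial DNA helicase (Mrpl43, chr19:45006443-45006557, minus strand), and the 29 bases between the starts of the coding transcripts of 2 members that are transcribed away from each other (Mrpl46 and Mrps11, chr7:78783090-78783118, shown on the plus strand). The deposited span of Mrpl46 runs on to 78783531, through a noncoding transcript that holds these bases in an intron, and so overlaps Mrps11.
Mrpl9: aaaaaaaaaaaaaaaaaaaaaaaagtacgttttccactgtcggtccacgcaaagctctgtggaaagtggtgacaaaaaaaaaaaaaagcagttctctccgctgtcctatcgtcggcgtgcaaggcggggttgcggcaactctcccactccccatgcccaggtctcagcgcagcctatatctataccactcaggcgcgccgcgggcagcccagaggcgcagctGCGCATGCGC
Mrpl43: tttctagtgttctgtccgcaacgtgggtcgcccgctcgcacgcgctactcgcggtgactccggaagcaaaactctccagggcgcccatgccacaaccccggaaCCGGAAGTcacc
Mrpl46 and Mrps11: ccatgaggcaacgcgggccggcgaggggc

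Start regions shared with a gene on the opposite strand were common. A protein-coding gene on the opposite strand started within 1000 bp of the start of 29 of the 77 members (37.7%), against 1749 of 13505 tested protein-coding genes (12.95%). Partners included Sars2, the mitochondrial seryl-tRNA synthetase, at Mrps12, Mitd1 at Mrpl30 and Apba3 at Mrpl54. The annotated span of 22 members overlapped a gene on the opposite strand and that of 3 (Mrps6, Mrps24 and Mrps34) a gene on the same strand. Libraries were strand-specific, but whether the reads were counted by strand is not stated in the sources used here, so values of these members may hold reads of the partner. Mrps36, Mrpl23 and Mrpl48 have pseudogene copies in the same table and may share reads with them.

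**Figure D1:**
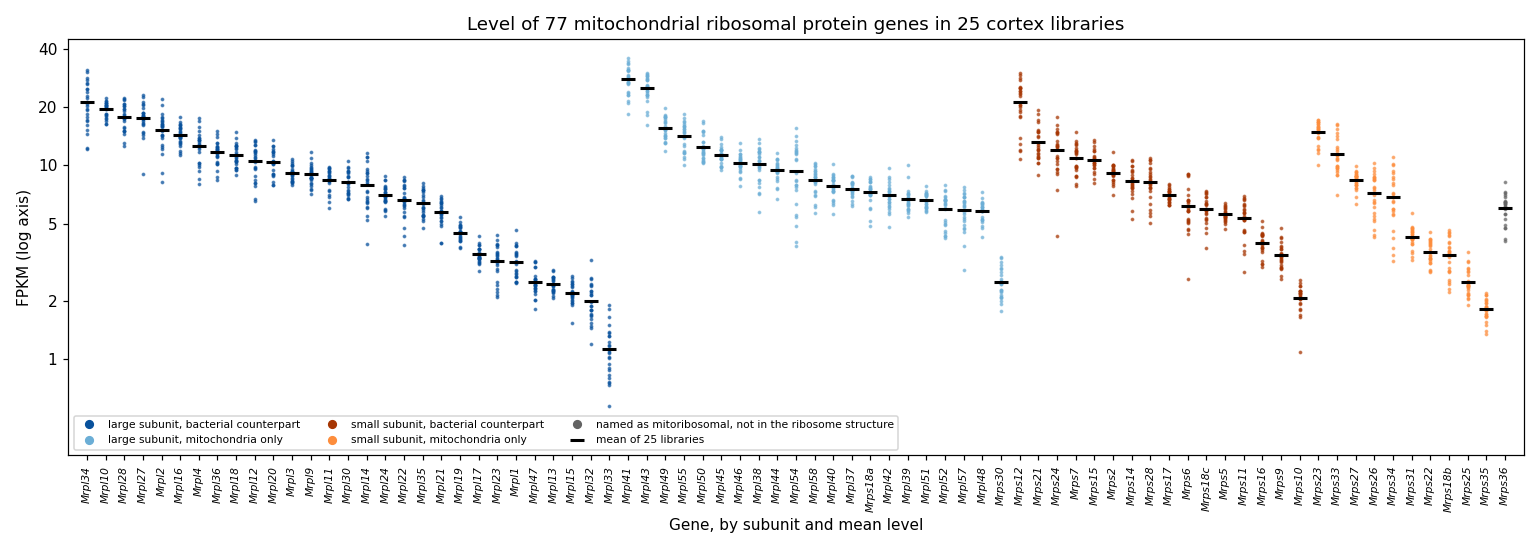
FPKM (log axis) of the 77 members, grouped by subunit and by whether a bacterial counterpart exists, and ordered by mean; each point is 1 of 25 libraries and each black bar the mean. Means run from 27.8 FPKM for Mrpl41 to 1.13 FPKM for Mrpl33, and each of the 4 subunit classes spans high and low members.

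The members were expressed at moderate levels. Their median over genes was 7.83 FPKM, against 4.24 FPKM for all tested genes, 43.0 FPKM for 82 cytosolic ribosomal protein genes and 25.9 FPKM for 94 nuclear genes of oxidative phosphorylation. Highest were Mrpl41 (27.8 FPKM) and Mrpl43 (25 FPKM), both of the large subunit and specific to mitochondria. Next came Mrps12 (21.2 FPKM), a small-subunit protein near the decoding site, Mrpl34 (21.2 FPKM) and Mrpl10 (19.45 FPKM), which anchors the stalk. Mrps12 and Mrpl34 did not differ beyond their spread. Lowest were Mrpl33 (1.13 FPKM), Mrps35 (1.81 FPKM), Mrpl32 (2.01 FPKM), Mrps10 (2.08 FPKM) and Mrpl15 (2.20 FPKM). The last 3 did not differ beyond their spread over libraries. The plot of member levels shows the 25 libraries of each gene.

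The order of levels depended on the length by which reads were divided. The deposited length exceeded the median length of the annotated coding transcripts by far for some members: 7326 against 478 bp for Mrpl33, 8152 against 865 bp for Mrpl48 and 6490 against 851 bp for Mrps17. With the coding transcript length, Mrpl48 (54.8) and Mrps17 (53.6) came first on the same per-kilobase scale, Mrpl41 (42.0) after them and Mrpl33 (17.4) number 32. Spearman's rho between both orders was 0.525 over the 77 genes. A comparison of 1 gene between groups uses the same length in every library, so that the length enters its fold change only through the 0.5 FPKM added before the logarithm.

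The landmark members were found at 10.51 FPKM for Mrpl12, the stalk protein that also binds the mitochondrial RNA polymerase, and 8.39 FPKM for Mrpl58, a peptidyl-tRNA hydrolase built into the large subunit. Mrpl44, which has a ribonuclease III fold, stood at 9.44 FPKM, Mrpl3, next to the catalytic centre, at 9.15 FPKM, and Mrps22 at 3.59 FPKM. The 3 paralogs related to the bacterial protein S18, of which only Mrps18c is counted here as its counterpart, following the naming used for ribosome structures, stood at 7.28 (Mrps18a), 5.97 (Mrps18c) and 3.43 FPKM (Mrps18b). Mrps36 was at 6.05 FPKM.

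The members varied less from mouse to mouse than all tested genes, as did similar families. Their median SD of log2(FPKM + 0.5) over the 25 libraries was 0.202, against 0.258 for all tested genes. It was 0.207 for nuclear genes of oxidative phosphorylation, 0.208 for other genes of mitochondrial translation and 0.222 for cytosolic ribosomal protein genes. Steadiest were Mrps5 (SD 0.0978, 4.69 to 6.39 FPKM), Mrps17 (0.102) and Mrpl13 (0.102). Most variable were Mrpl54 (SD 0.536, 3.82 to 15.5 FPKM), Mrps34 (0.451), Mrps12 (0.420), Mrps24 (0.400) and Mrpl34 (0.370). For Mrpl54, which had 52 to 220 reads in a library, counting alone would give an SD of about 0.129. These 5 members have transcripts of high GC content, from 56.9% for Mrps12 to 60.8% for Mrpl54. Across the 77 members, Spearman's rho of the SD was 0.466 with GC content and -0.515 with gene length, and the 2 properties were themselves related (rho -0.613). Across 13491 tested protein-coding genes the rho of SD and GC content was 0.246.

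Libraries differed in how levels followed GC content, and this bears on the comparisons below. The slope of a library's log2 deviation on GC content was 0.184 ± 0.0532 per 10 percentage points in WT_HighP and -0.159 ± 0.157 in WT_Veh (mean ± SD, n = 5; two-sided exact permutation p = 0.00794, the smallest that 5 against 5 mice allow). No other pair of groups compared differed by this test (exact p from 0.214 to 0.984). Fold changes of the 77 members still followed GC content in most other comparisons. Spearman's rho was 0.37 for AD_Veh against WT_Veh, 0.50 for AD_HighP against AD_Veh and 0.53 for AD_HighP against AD_LowP. It was -0.56 for the interaction of genotype and high P, and 0.003 for AD_LowP against AD_Veh. The share of reads from mitochondrial DNA was 4.32% ± 0.310 in WT_HighP and 6.28% ± 0.325 in WT_Veh (n = 5, exact permutation p = 0.00794). Libraries held 15518358 to 17698222 reads assigned to genes, and each group had 3 males (mice 1 to 3) and 2 females (mice 4 and 5) by Xist and Y-linked genes. Both females had lower GC slopes than all 3 males in WT_Veh, AD_Veh and AD_HighP and higher ones in AD_LowP, and the ranges overlapped in WT_HighP. Cortical neuron markers such as Slc17a7 (124 to 372 FPKM) were present throughout. Summed microglia markers were 72.3 to 98.1 FPKM in WT_Veh and 187 to 224 FPKM in AD_Veh, with 3 of 4 called higher. The astrocyte marker Aqp4 was called higher in AD_Veh as well (27.6 to 56.4 FPKM against 14.7 to 28.7), while the other 3 astrocyte markers were not. The 5 choroid plexus markers summed to 1.32 to 60.2 FPKM in WT_Veh and 5.46 to 839 FPKM in WT_HighP, with none of the 4 tested called. Of the 4 tested meninges and fibroblast markers, Ptgds was called higher in WT_HighP (194 to 355 FPKM against 97.1 to 274 in WT_Veh), and the sum of the list was 197 to 362 FPKM against 98.9 to 279.9. Of these markers, Kcnj13, Aqp1 and Folr1 were at 0 in 3 libraries each, and the part of choroid plexus, meninges or astrocytes in the results was not tested. Summed striatal markers ran from 42.8 to 656 FPKM over libraries. In bulk tissue, fewer cells of a type and less RNA per cell cannot be told apart.

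**Figure D2:**
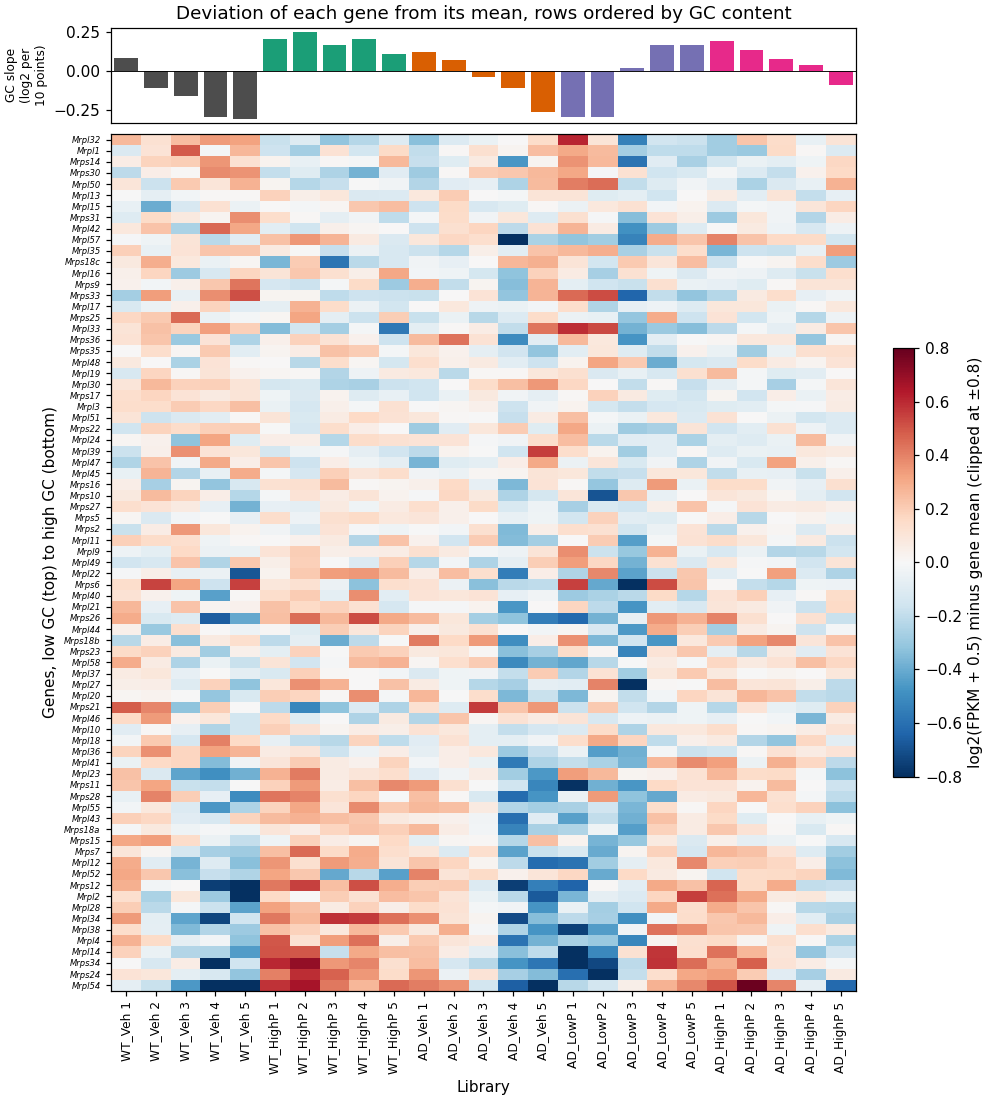
Each row is 1 of 77 members, from low (top) to high GC content (bottom), each column 1 library, and colour is log2(FPKM + 0.5) minus the gene's mean; bars above give each library's slope on GC content. Rows at the bottom are red in WT_HighP and blue in WT_Veh 4 and 5, AD_Veh 4 and 5 and AD_LowP 1 and 2, and the columns AD_Veh 4 and AD_LowP 3 are blue over most of their length.

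Libraries AD_Veh 4 and AD_LowP 3 stood apart in the members. Summed over the 77 members they held 555 and 563 FPKM, while the other 23 libraries held 624 to 745 FPKM. The members' median deviation from their gene means was -0.209 and -0.194 on the log2 scale, and -0.179 and -0.183 once the GC trend of each library had been removed. AD_Veh 4 was the lowest of all 25 libraries for 15 members and AD_LowP 3 for 18. In the same libraries, in that order, the median deviation of oxidative phosphorylation genes was -0.112 and -0.223, and that of 77 other genes of mitochondrial translation was -0.113 and -0.115. Cytosolic ribosomal protein genes had medians of 0.175 and 0.105 there. Protein-coding genes shorter than 1500 bp also had negative medians there (-0.177 and -0.189). They were similarly low in WT_Veh 4 and 5 (-0.172 and -0.235), where the members' medians were -0.0226 and -0.0270. Those medians cover a split. The 26 members of highest GC content (median gene length 1336 bp) had -0.187 and -0.243 there. The 26 of lowest GC content (median 4638.5 bp) had 0.118 and 0.112. The part of transcript length in the low levels was not tested.

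**Figure D3:**
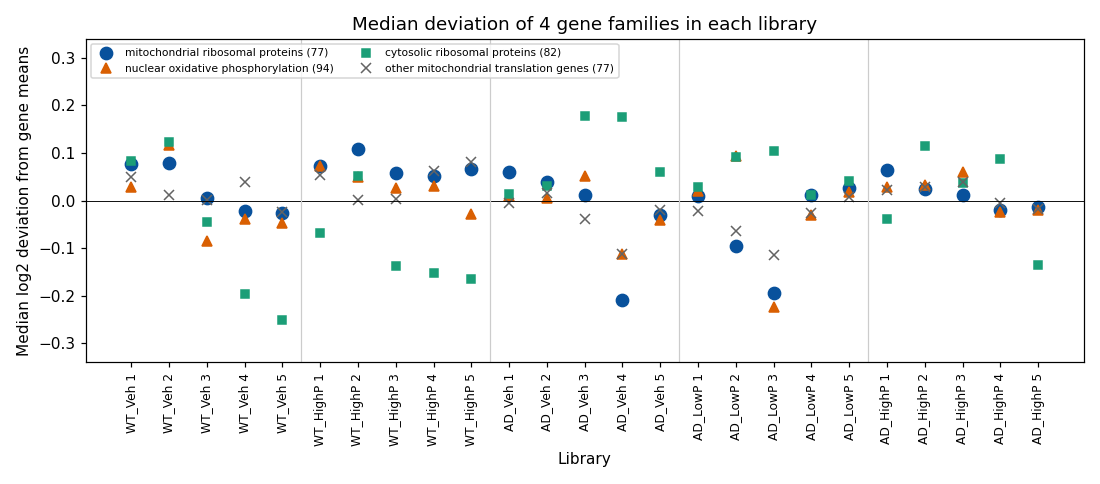
Median log2 deviation from gene means of 4 gene families in each of 25 libraries, grouped by genotype and treatment. The mitochondrial ribosomal protein genes lie between -0.209 (AD_Veh 4) and 0.108 (WT_HighP 2), with AD_Veh 4 and AD_LowP 3 lowest, while the cytosolic family is above 0 in both of these libraries.

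Amyloid genotype was examined by comparing AD_Veh with WT_Veh. Only Mrpl36, a small zinc-binding protein of the large subunit, changed: 0 of 77 members were higher and 1 was lower, where 2.83% of all tested genes were higher and 0.274% lower. Mrpl36 (chr13:73328513-73332178, mm10) measured 13.13, 15.02, 13.10, 14.57 and 14.04 FPKM in the 5 WT_Veh mice. In the AD_Veh mice it measured 10.99, 12.004, 12.27, 9.37 and 10.12 FPKM. The groups did not overlap, and the log2 fold change was -0.34 (SE 0.0905, limma adjusted p = 0.0335). With the GC trend removed it was -0.40 (limma adjusted p = 0.0115). Its level was also below that of WT_Veh in the other groups, at 11.6 ± 0.862 FPKM in WT_HighP, 9.98 ± 1.40 in AD_LowP and 11.8 ± 0.883 in AD_HighP (SD, n = 5). Ndufs6, a complex I gene that overlaps Mrpl36 on the opposite strand, measured 11.01 ± 1.09 FPKM in AD_Veh and 9.004 ± 3.20 in WT_Veh, with a log2 fold change of 0.33 (limma adjusted p = 0.618). The call on Mrpl36 held in 12 of 23 other settings, and leaving out any 1 of 6 mice (WT_Veh 2, 4 or 5, AD_Veh 1, 4 or 5) ended it, with an adjusted p of up to 0.125.

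The other members showed no shift with genotype that the test could separate from 0. Over all 77 members, Mrpl36 included, the median log2 fold change was -0.05, against -0.02 over all tested genes, with 33 members above 0 and 44 below. Without AD_Veh 4 the median was 0.0033. Mrps6, of the small subunit, had the lowest value, -0.41 (SE 0.215, limma adjusted p = 0.498), and Mrpl32, whose maturation depends on the m-AAA protease of mitochondria, stood at -0.33 (adjusted p = 0.376). The highest values were those of Mrpl54 (0.41, SE 0.257, limma adjusted p = 0.610), Mrpl52 (0.20) and Mrpl55 (0.17). Mrpl3 did not overlap between the groups (10.4 ± 0.326 FPKM in WT_Veh, 8.94 ± 0.510 in AD_Veh, n = 5), with a log2 fold change of -0.21 and a limma adjusted p of 0.0867. How many of all tested genes did not overlap is not given here. For all 77 members the 95% interval of the fold change stayed within 2-fold in either direction. By class, the median was -0.04 for both large-subunit classes, -0.09 for the small-subunit proteins with a bacterial counterpart and -0.10 for those without.

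High P in wild-type mice was examined by comparing WT_HighP with WT_Veh. The large-subunit members Mrpl54 and Mrpl34 were higher and Mrpl30 was lower, which is 2 and 1 of 77, where 1.39% of all tested genes were higher and 1.79% lower. Fold changes of the members tended to be higher where the GC content of the transcript was higher. None of the 3 calls held once the GC trend of each library had been removed, and none held without the 4 libraries above 100 FPKM of the choroid plexus gene Ttr. Those libraries include WT_HighP 1 and WT_HighP 2, and leaving out either of these alone also ended all 3 calls. Their removal therefore cannot separate choroid plexus content from a smaller number of mice. The values of these members and of Mrpl36 are drawn mouse by mouse.

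**Figure D4:**
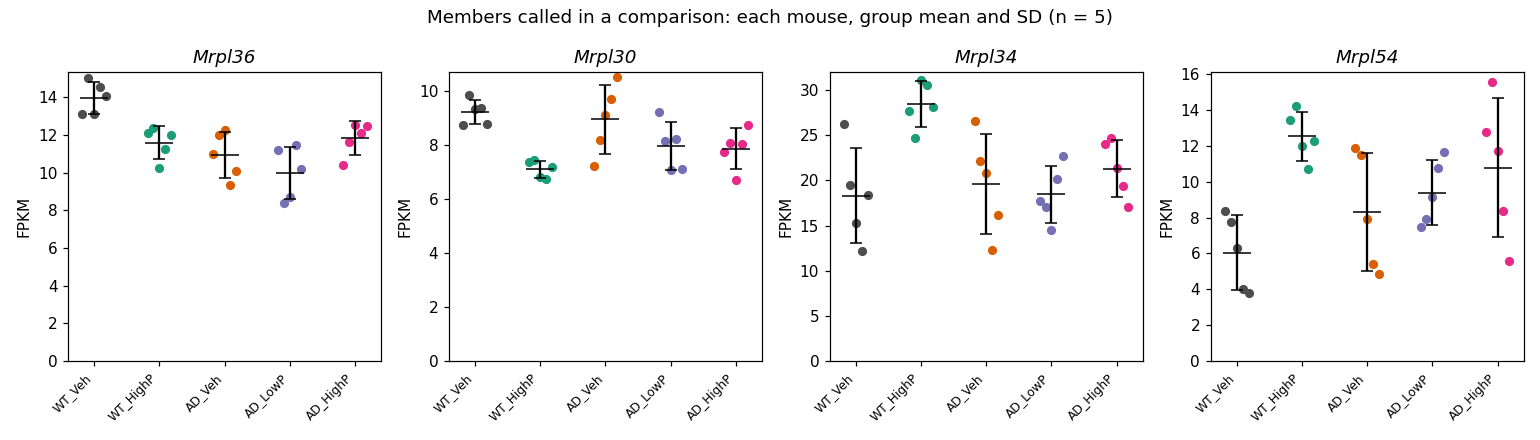
FPKM of the 4 members called in a comparison, for each mouse of the 5 groups, with the group mean and SD (n = 5). Mrpl36 is highest in WT_Veh, Mrpl30 is lowest and tightly grouped in WT_HighP, and Mrpl34 and Mrpl54 are highest on average in WT_HighP with wide spread in the other groups.

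Mrpl54 (chr10:81264713-81266934) encodes a large-subunit protein specific to mitochondria. It measured 8.37, 7.75, 6.29, 4.01 and 3.82 FPKM in the WT_Veh mice. In the WT_HighP mice it measured 13.44, 14.22, 12.02, 10.69 and 12.26 FPKM. Every WT_HighP mouse lay above every WT_Veh mouse, with a log2 fold change of 1.05 (SE 0.257, limma adjusted p = 0.0407). After removal of the GC trend it was 0.59 (adjusted p = 0.206). In AD_Veh its range was 4.86 to 11.9 FPKM, which overlapped both wild-type groups. Both females were below all 3 males in WT_Veh, AD_Veh and AD_HighP and above them in AD_LowP, as for the GC slope. With a term for sex the call in wild-type mice held (log2 fold change 1.05, limma adjusted p = 0.0224). Every group had the same numbers of males and females, so this term could change the p-value but not the fold change.

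Mrpl34 (chr8:71464959-71465747) encodes a small large-subunit protein with a bacterial counterpart. It measured 26.20, 19.48, 15.25, 12.18 and 18.37 FPKM in WT_Veh. In WT_HighP it measured 27.7, 24.7, 31.1, 30.5 and 28.1 FPKM. The highest WT_Veh mouse exceeded the lowest WT_HighP mouse, so the groups overlapped, and the log2 fold change was 0.66 (SE 0.181, limma adjusted p = 0.0488). After removal of the GC trend it was 0.31 (adjusted p = 0.482). Its upstream sequence, shown because the gene was called, held none of the 4 motifs (chr8:71464676-71464925, plus strand, GRCm38.p6).
Mrpl34: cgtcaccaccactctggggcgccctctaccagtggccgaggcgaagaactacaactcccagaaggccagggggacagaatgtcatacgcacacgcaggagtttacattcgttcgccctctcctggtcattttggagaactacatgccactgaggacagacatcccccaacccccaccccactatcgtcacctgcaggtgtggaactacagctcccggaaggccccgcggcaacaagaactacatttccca

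Mrpl30 (chr1:37890477-37898535) encodes a large-subunit protein with a bacterial counterpart. It measured 8.74, 9.84, 9.34, 9.37 and 8.79 FPKM in WT_Veh. In WT_HighP it measured 7.36, 7.44, 6.80, 6.74 and 7.18 FPKM. The groups did not overlap, and the log2 fold change was -0.35 (SE 0.0897, limma adjusted p = 0.0430). After removal of the GC trend it was -0.26 (adjusted p = 0.206). Mitd1, which shares its start region with Mrpl30, had a log2 fold change of -0.13 (limma adjusted p = 0.683). When each mouse of both groups was left out in turn, Mrpl30 and Mrpl34 remained called only without WT_Veh 1 and Mrpl54 only without WT_Veh 1 or WT_HighP 5, with limma adjusted p of up to 0.118, 0.14 and 0.133.

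Other members had changes of similar size without passing the test. Mrps12 stood at 0.68 (SE 0.221, limma adjusted p = 0.0692) and Mrps34 at 0.65. Below 0 were Mrpl33 (-0.48, adjusted p = 0.0898), Mrpl32 (-0.44, adjusted p = 0.0705) and Mrps21 (-0.43, adjusted p = 0.0652). Mrpl33 and Mrpl32, both related to zinc-binding proteins of bacteria, did not overlap between the groups: Mrpl32 was 2.46 ± 0.171 FPKM in WT_Veh and 1.67 ± 0.137 in WT_HighP (n = 5). How many of all tested genes did not overlap in this comparison is not given here. In all, 25 of 77 members had an unadjusted p under 0.05, against 4581 of 16450 tested genes (32.5% and 27.8%). The median log2 fold change was 0.04, against 0.00 over all tested genes, with 45 members above 0 and 32 below.

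The members split by GC content. The 26 members of lowest GC content (up to 47.6%) had a median log2 fold change of -0.16, the 25 in the middle 0.04 and the 26 highest (above 52.4%) 0.29. All tested protein-coding genes within the same GC limits had medians of -0.22, -0.01 and 0.24. Spearman's rho of fold change and GC content was 0.644 over the 77 members and 0.723 over all tested genes, as a description over genes that share their libraries. After removal of the GC trend the 3 medians were 0.05, 0.04 and 0.02, and 0 members were called. The GC slope of every WT_HighP library (0.104 to 0.247) exceeded that of every WT_Veh library (-0.307 to 0.0783), so effects of P and of the libraries' GC trend cannot be told apart.

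**Figure D5:**
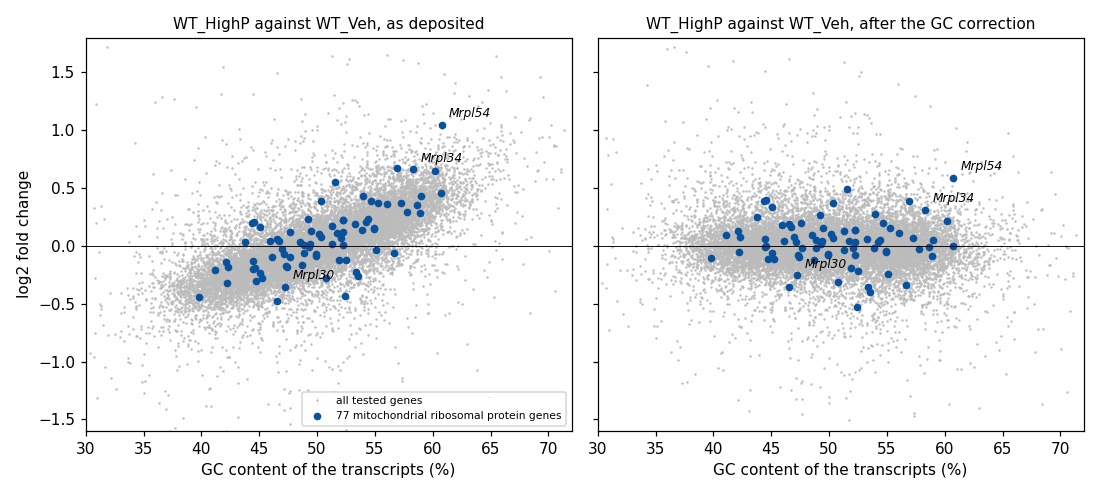
Log2 fold change of WT_HighP against WT_Veh by transcript GC content, for all tested genes (grey) and the 77 members (blue), as deposited (left) and after each library's GC trend was removed (right). The members follow the grey cloud upward on the left (rho 0.644), and on the right they scatter around 0 with a median of 0.04.

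The remaining machinery of mitochondrial translation was compared in the same way, from lists written by hand: 28 genes of ribosome assembly and RNA modification, 16 translation factors, 17 aminoacyl-tRNA synthetases, 11 genes of mitochondrial DNA transcription and maintenance and 5 ribosomal proteins outside the naming rule, 77 in all. In AD_Veh against WT_Veh, 0 of 77 were higher and 2 lower, where 2.83% of all tested genes were higher and 0.274% lower. These were Mterf3, which takes part in ribosome assembly (2.78 ± 0.681 against 3.99 ± 0.421 FPKM, n = 5, limma adjusted p = 0.0320), and Mterf1a, a transcription termination factor (0.585 ± 0.0576 against 1.16 ± 0.217 FPKM, adjusted p = 0.0464). Their log2 fold changes were -0.48 and -0.61. Mterf1a lay near the limit of 0.5 FPKM in AD_Veh, and the 0.5 FPKM added before the logarithm understates its change. After removal of the GC trend the 2 log2 fold changes were -0.40 and -0.49, of similar size, but neither passed the test (limma adjusted p = 0.0786 and 0.105). In WT_HighP against WT_Veh, 3 of 77 were higher and 1 lower, where 1.39% of all tested genes were higher and 1.79% lower. Higher were Aurkaip1, a small-subunit protein outside the naming rule (log2 fold change 0.51, limma adjusted p = 0.0426), Tufm, the elongation factor that brings aminoacyl-tRNA (0.35, adjusted p = 0.0423), and Mpv17l2, an assembly protein (0.61, adjusted p = 0.0433). Lower was Guf1, a back-translocating elongation factor (-0.51, adjusted p = 0.0356). After removal of the GC trend their values were 0.19, 0.14, 0.11 and -0.21, in that order, and none was called.

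The products of this ribosome are the 13 proteins encoded by mitochondrial DNA. In WT_HighP against WT_Veh, mt-Nd1, mt-Nd2, mt-Nd4 and mt-Nd6 of complex I were lower (log2 fold changes of -0.65, -0.71, -0.65 and -0.61) and the ATP synthase genes mt-Atp6 and mt-Atp8 higher (1.25 and 1.72). The 2 ATP synthase genes had few reads for this family, whose median level was 2880 FPKM. In WT_HighP and WT_Veh, mt-Atp6 measured 347 ± 133 and 150 ± 85.5 FPKM (n = 5). For mt-Atp8 the values were 10.7 ± 3.51 and 2.94 ± 1.21 FPKM. With the GC trend removed, 0 of the 13 were called. The 4 lower genes then stood at -0.25, -0.25, -0.19 and -0.11, while mt-Atp6 and mt-Atp8 stood further from 0, at 1.70 (limma adjusted p = 0.104) and 2.28 (adjusted p = 0.0547). Poly(A) selection recovers mitochondrial transcripts unevenly, and its part was not tested. Cytosolic ribosomal protein genes had 1 of 82 higher and 7 lower, with a median of -0.06, and oxidative phosphorylation genes 7 of 94 higher and 3 lower, with a median of 0.06 (1.39% of all tested genes were higher and 1.79% lower). With the GC trend removed, the counts were 0 higher and 3 lower for the cytosolic genes and 1 higher and 0 lower for oxidative phosphorylation, and 4 higher and 5 lower of all 16450 tested genes. In AD_Veh against WT_Veh none of these 3 families had a called gene, and their medians were -0.19, 0.16 and -0.0016.

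Low P in 5xFAD mice left no member past the test. In AD_LowP against AD_Veh, 0 of 77 members were called in either direction, as were 0.0% of all tested genes, and 2 members (2.60%, against 2.98% of all tested genes) had an unadjusted p under 0.05. Log2 fold changes ran from -0.31 (Mrps21, SE 0.137) to 0.31 (Mrpl23, SE 0.134), with a median of -0.01. Mrps21, of the small subunit, was 15.5 ± 2.73 FPKM in AD_Veh and 12.4 ± 1.65 in AD_LowP (n = 5), and the groups overlapped. Mrpl54 stood at 0.23 and Mrps24 at -0.30. All 77 intervals lay within 2-fold. Both groups contain 1 of the libraries that stood apart, and the median moved between -0.0574 and 0.0243 as single libraries were left out.

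High P in 5xFAD mice likewise left 0 of 77 members called by limma against AD_Veh (0.00608% of all tested genes were higher and 0.0% lower), and 1 had an unadjusted p under 0.05 (1.30%, against 5.98% of all tested genes). Mrps34 had the highest value, 0.42 (SE 0.235, limma adjusted p = 0.780), with 7.59 ± 1.15 FPKM in AD_HighP and 5.64 ± 1.43 in AD_Veh (n = 5). Mrpl54 followed at 0.36 and Mrpl57 at 0.31. At the other end were Mrps21 (-0.25), Mrpl9 (-0.21) and Mrpl30 (-0.17). Mrpl9 measured 8.15, 8.64, 7.50, 7.59 and 8.01 FPKM in AD_HighP and 9.80, 9.42, 8.84, 8.66 and 9.63 FPKM in AD_Veh. These groups did not overlap, though the limma adjusted p was 0.780, and the share of all tested genes without overlap is not given here. The members' median was 0.04, and all 77 intervals lay within 2-fold. The 26 members of lowest GC content had a median of -0.0003 and the 26 highest 0.13.

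Between the doses, AD_HighP against AD_LowP, 0 of 77 members were called (0.0% of all tested genes in either direction), and 3 had an unadjusted p under 0.05 (3.90%, against 6.19% of all tested genes). Values ran from -0.18 for Mrpl9 to 0.38 for Mrps24, and Mrps18b stood at 0.35 (SE 0.157, limma adjusted p = 0.773). The median was 0.06, with 52 members above 0 and 25 below. It was 0.01 over the 26 members of lowest GC content and 0.14 over the 26 highest. All tested protein-coding genes within the same GC limits had medians of -0.08 and 0.10. The 3 comparisons among 5xFAD groups share samples pairwise and are not independent of each other.

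The interaction asks whether high P moved a gene by a different amount in 5xFAD than in wild-type mice. It called 0 of 77 members (0.0% of all tested genes), and 5 had an unadjusted p under 0.05 (6.49%, against 6.92% of all tested genes). Its largest values were -0.69 for Mrpl54 (SE 0.363, limma adjusted p = 0.723) and -0.51 for Mrpl34, and on the positive side 0.54 for Mrpl32, 0.43 for Mrpl33 and 0.37 for Mrpl36 (SE 0.128, adjusted p = 0.7099). The SE is larger here than in a comparison of 2 groups, with a median of 0.174 against 0.123. The interaction values also split by GC content: the 26 members of lowest GC content had a median of 0.13 and the 26 highest -0.13. All tested protein-coding genes within the same GC limits had medians of 0.13 and -0.16. With the GC trend removed, the members' medians were 0.02 and 0.05.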

How the data were processed

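The members and lists were chosen with earlier results of these data known. The authors deposited FPKM values per gene, with gene lengths, as 1 table of 54532 genes in 25 libraries; reads were aligned to mm10 with HISAT2 per the submitters' processing notes, and the tool and annotation used for counting are not stated in the sources used here. Libraries were strand-specific and poly(A)-selected per the labels' protocols. FPKM times gene length gave whole reads (tolerance 0.01 of a read), from which depth was taken: 15518358 to 17698222 reads per library. No 2 libraries matched within counting noise. The 16450 genes that reached 0.5 FPKM in 5 or more libraries were fitted as log2(FPKM + 0.5), a scale on which the changes of low genes are understated, with limma 3.58.1 in R 4.3.3. The fit used a mean per group, all 25 libraries, 20 residual degrees of freedom, trended variances, 6 contrasts and Benjamini-Hochberg adjustment within each; calls were made below an adjusted p of 0.05. The procedure was tested on simulated data. The GC trend was removed per library by lowess (span 0.3) of deviations from gene means on the GC content of GENCODE transcripts. Alternatives were pseudocounts of 0.1 and 1, no filter or 1 FPKM, only the groups compared, array weights, a sex term, a replicate block, each library left out, and, added after seeing the data, limma-voom on recovered reads, removal of the 4 libraries above 100 FPKM of Ttr or of AD_Veh 4 and AD_LowP 3, and coding transcript length for the order of levels. Named were called members, otherwise the 3 largest changes a direction, the 5 highest, 5 lowest, 5 most and 3 least variable members, 10 landmarks and called pathway genes. Mrpl46, Mrps11, Mrpl43 and the partners of shared starts were named for their position, and the markers Aqp4 and Ptgds for their calls, after the values were seen. Overlap between groups is described for single members only, without the share over all tested genes.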

Additional observations from a re-analysis of the deposited data

Results flagged for a closer look

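In 7 of 205 groups of 5 mice tested, 1 mouse lay far from the other 4 (its gap to the nearest exceeded 0.71 of the group's range); chance gives about 1 in 20. Within WT_Veh these were Mrpl22 in mouse 5 (3.89 FPKM), Mrpl9 in mouse 3 (10.1 FPKM), Mrps18a in mouse 2 (7.65 FPKM) and Mrps22 in mouse 1 (3.14 FPKM). Mrpl43 was low in AD_Veh 4 (16.1 FPKM), the library with the lowest sum over the members, and Mrpl52 was low in AD_LowP 2 (4.33 FPKM). Mrps36 stood apart in AD_HighP 4 (4.73 FPKM).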

How the results depend on the processing

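In the 4 comparisons other than AD_Veh or WT_HighP against WT_Veh, 0 members and 0 translation genes were called in every setting run. The median log2 fold change of the members moved by less than the spread between replicates in every comparison and setting. That is a wide limit: the SD of the members' median between replicates was 0.0706, larger than the median of any comparison. A change of sign could pass it, as in AD_LowP against AD_Veh (-0.0574 to 0.0243 over single libraries left out). For AD_Veh against WT_Veh, the count of members lower (1) became 0 with only the groups compared, with the replicate block, without the libraries high in Ttr, without both AD_Veh 4 and AD_LowP 3 and with limma-voom, and was 0 to 1 as single libraries were left out. Its 2 called translation genes became 1 with a pseudocount of 0.1, a filter of 1 FPKM, only the groups compared or the block with GC correction, 4 with array weights, and 0 with no filter, GC correction, without the Ttr libraries, without AD_Veh 4 and AD_LowP 3 and with limma-voom (0 to 2 over single libraries left out). For WT_HighP against WT_Veh, members higher (2) became 0 with no filter, GC correction, the block with GC correction and without the Ttr libraries, 8 with only the groups compared, 11 with array weights and 4 with a sex term (0 to 7 over single libraries left out). Members lower (1) became 0 with no filter, GC correction, the replicate block with or without GC correction, without the Ttr libraries and with limma-voom, 4 with only the groups compared and 8 with array weights (0 to 4). Its 4 translation genes became 0 with no filter, GC correction, the block with GC correction and without the Ttr libraries, 9 with only the groups compared and 25 with array weights (0 to 16). The cause of these changes was not tested. Same-numbered libraries share sex (1 to 3 male, 4 and 5 female in every group), and nothing in the labels ties them otherwise: over 50 pairs, correlations of deviations between same-numbered libraries ran from -0.379 to 0.273 with a median of 0.0211, and 3 libraries correlated best with their own number. Each group holds every replicate number, so the replicate block by itself cannot move a fold change. The median of the members with it was necessarily the same, -0.0463 for AD_Veh and 0.04 for WT_HighP against WT_Veh. Counting noise weighs most on members with few reads, but the width of the intervals did not simply follow level. In WT_HighP against WT_Veh the 95% interval lay within 1.5-fold for 56 of 77 members. These were 23 of the 26 of lowest GC content (median level 5.86 FPKM, median SE 0.118). They were 22 of the 25 in the middle (7.58 FPKM, 0.115) and 11 of the 26 highest (11.1 FPKM, 0.147).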
